A study of Homo sapiens with 18 samples.

Results

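The subject here is the difference between 2 acute myeloid leukemia (AML) cell lines in their mRNA response to SNDX-50469, a Menin inhibitor given as VTP50469 in the labels. For each gene, the log2 response of MV4-11 cells (SNDX-50469 over control) was taken, and the log2 response of OCI-AML3 cells was subtracted from it. The members are the 10 libraries, of 18 in the series, that carry these 4 groups in the labels: MV4-11 with 1000 nM SNDX-50469 (n = 2), MV4-11 control (n = 2), OCI-AML3 with 500 nM SNDX-50469 (n = 3) and OCI-AML3 control (n = 3). All were cultured for 16 h and measured by RNA sequencing of total RNA. MV4-11 cells carry a rearranged MLL1 (KMT2A) gene and grew in IMDM, while OCI-AML3 cells carry mutant NPM1 and grew in RPMI. Line, dose and medium therefore cannot be told apart in this comparison, and each genotype was represented by a single line. The MOLM13 line, also MLL1-rearranged but treated with 500 nM in RPMI (2 SNDX-50469 and 2 control libraries), is given beside some results, and no difference from it was tested.

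Menin is a scaffold protein, the product of MEN1, that tethers MLL1 to chromatin. In leukemia with rearranged MLL1, the fusion protein keeps HOXA cluster genes, MEIS1, PBX3, MEF2C and other stem cell genes switched on, and myeloid maturation is held back. In AML with mutant NPM1 the MLL1 gene is intact, yet the HOX and MEIS1 genes stay high and also depend on the Menin and MLL1 complex. Menin inhibitors occupy the pocket in which MLL1 binds and release it from its target genes.

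The MV4-11 libraries held 20730486 to 30090830 counts and the OCI-AML3 libraries 49881047 to 59711884, so low-level genes were measured with less error in OCI-AML3. Replicates also lay further apart in MV4-11, where the common biological coefficient of variation was 13% against 3.14% in OCI-AML3, and the median standard error (SE) of a log2 response was 0.181 against 0.0471. The MV4-11 control 1 library stood apart, with 10.3% of its counts from the mitochondrial genome against 5.60% in MV4-11 control 2, 6.23% and 6.68% in the treated MV4-11 libraries, and 7.17% to 8.04% in OCI-AML3. OCI-AML3 control 1 differed more from the other OCI-AML3 controls than those did from each other. It was the highest control for several genes described here, among them CEBPA, CEBPB, SPI1, FTH1, PDXP, XBP1, CDKN2C and TBX1. Both lines had the myeloid transcripts of their label: LYZ, which encodes lysozyme, was at 1914 and 1851 CPM, the counts scaled to library size, in treated and 1805 and 1878 CPM in control MV4-11, and between 220 and 244 CPM in OCI-AML3. The T-cell receptor genes CD3D and CD3E were at 0 in MV4-11. The sum of 12 lymphoid markers was 100 to 131 CPM in treated and 57.1 to 75.2 CPM in control MV4-11, most of it NKG7, and 2.5 to 2.86 against 2.53 to 3.39 CPM in OCI-AML3, and the part of other cells in the results was not tested. CPM were scaled within each line, so levels are set side by side across lines only as an orientation.

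Of 14234 genes tested in both lines, 1683 rose (11.8%) and 1397 fell (9.81%) with SNDX-50469 in MV4-11, against 1074 that rose (7.55%) and 553 that fell (3.89%) in OCI-AML3. The MV4-11 counts rest on 2 libraries a group, and were 878 rises and 765 falls without MV4-11 control 1, 956 and 763 without MV4-11 SNDX-50469 1, and 944 and 966 without MV4-11 SNDX-50469 2. Rises were then fewer than in OCI-AML3, and falls more. The response itself differed between the lines for 1987 genes (14%), at an adjusted p below 0.05 and a size of at least 0.32 on the log2 scale, by edgeR fits of each line. The difference was positive, with the MV4-11 response above that of OCI-AML3, for 1035 genes (7.27%), and negative for 952 (6.69%). The median log2 difference over all genes was -0.01. A change in a bulk library may come from fewer cells of a type or from less RNA per cell, and these cannot be told apart.

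Most of the differences were in genes called in MV4-11 alone. Of the 1035 positive differences, 701 were genes that rose in MV4-11 and were not called in OCI-AML3, with medians of 0.86 and 0.03 on the log2 scale. Another 130 rose in both lines and by more in MV4-11, 64 fell in OCI-AML3 alone, 40 rose in MV4-11 and fell in OCI-AML3, and 100 were called in neither line. Of the 952 negative differences, 675 fell in MV4-11 alone, 46 fell in both lines and by more in MV4-11, 114 rose in OCI-AML3 alone, 26 fell in MV4-11 and rose in OCI-AML3, and 6 rose in both lines and by more in OCI-AML3. The remaining 85 were called in neither line. The 114 genes that rose in OCI-AML3 alone did so by a median of 1.18 on the log2 scale. For the 64 that fell in OCI-AML3 alone the median was -0.49, and for the 675 that fell in MV4-11 alone it was -0.78. Another 491 genes rose in OCI-AML3 alone without a called difference. These medians cover only genes picked by that call, so they do not compare step sizes between the lines. In MOLM13, 126 of the 896 negative genes that were tested there fell (14.1%, against 5.26% of all 12764 genes tested in MOLM13), and 33 rose. Of the 934 positive genes tested there, 215 rose in MOLM13 (23%, against 8.56% of all genes), and 32 fell.

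**Figure D1:**
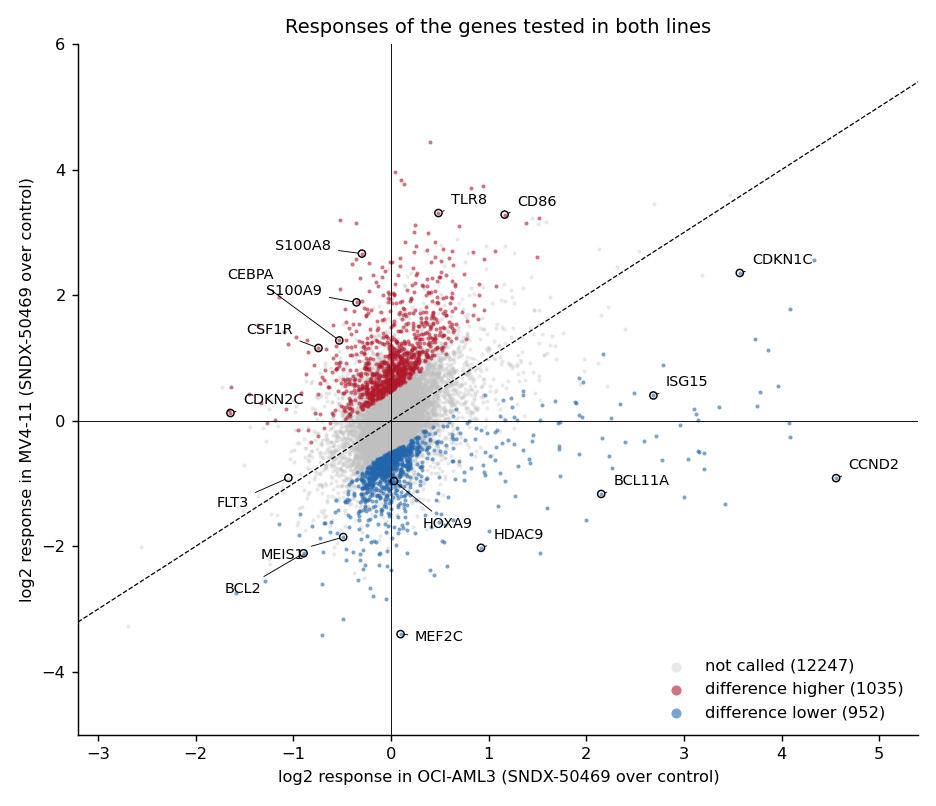
Each point is 1 of 14234 genes, with its log2 response to SNDX-50469 in OCI-AML3 on the horizontal axis and in MV4-11 on the vertical axis. The 1035 genes with a positive difference lie above the diagonal of equal response, the 952 with a negative difference lie below it, and grey points did not pass the test.

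Genes known as targets of MLL1 and Menin fell further in MV4-11. Of 12 MLL targets that the study follows, 10 fell in MV4-11, 5 fell in OCI-AML3 and 10 fell in MOLM13. Of all genes tested, 9.81%, 3.89% and 5.26% fell in these lines. For 8 of the 12 the fall in MV4-11 was the larger, and none had a positive difference. Of all genes, 6.69% had a negative and 7.27% a positive difference. The median log2 difference was -0.83, against -0.01 over all genes. The study chose this list with these lines in view, so its direction is not independent evidence. The 8 genes were MEF2C, MEIS1, BMI1, CDK6, HOXA9, PBX3, JMJD1C and MYB. FLT3, LAMP5, TCF4 and SENP6 did not pass the test of the difference. Without MV4-11 control 1, 7 of the 12 had a negative difference.

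MEIS1, a homeobox partner of the HOX proteins and a standard readout of Menin inhibition, lies at chr2:66435125-66573869 (GRCh38, like every position given here). Its promoter is shown beside that of S100A8, a maturation gene that rose in MV4-11, because the promoters of MLL targets and of maturation genes differed in their number of CG dinucleotides. Each stretch runs from 250 bases before to 50 bases after an annotated start (RefSeq, GRCh38.p14), with CG in capitals. The MEIS1 window (chr2:66434875-66435174, plus strand) holds 18 CG, and the S100A8 window (chr1:153390927-153391226, minus strand, 1 of 3 annotated starts) holds 2.
MEIS1: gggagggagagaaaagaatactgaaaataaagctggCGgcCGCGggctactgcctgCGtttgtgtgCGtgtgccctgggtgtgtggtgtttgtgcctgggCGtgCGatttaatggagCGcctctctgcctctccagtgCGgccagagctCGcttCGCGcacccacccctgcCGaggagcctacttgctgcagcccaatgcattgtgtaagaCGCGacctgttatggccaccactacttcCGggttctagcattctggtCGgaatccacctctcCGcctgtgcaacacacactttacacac
S100A8: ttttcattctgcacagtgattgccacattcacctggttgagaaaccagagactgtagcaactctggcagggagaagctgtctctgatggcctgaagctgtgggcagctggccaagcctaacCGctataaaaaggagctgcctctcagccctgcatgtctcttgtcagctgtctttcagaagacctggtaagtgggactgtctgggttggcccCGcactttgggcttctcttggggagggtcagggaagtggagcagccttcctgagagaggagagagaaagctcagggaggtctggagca
Such windows were at hand for 10139 of the tested genes. The median number of CG, taking the window with most where a gene has several, was 34.5 for the 12 MLL targets, 4 for 21 of the 26 monocyte and granulocyte genes described further on, and 28 for all tested genes. The genes with a positive or a negative difference had medians of 30 and 28, close to that of all genes, and the MEIS1 window lay below the median of its own list. These counts are a description of the letters in the windows and carry no test.

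MEF2C, a transcription factor of myeloid leukemia stem cells (chr5:88717117-88904105), showed the contrast between the lines most fully. It was at 17.9 and 20.7 CPM in treated MV4-11, against 210 and 197 CPM in MV4-11 control. In OCI-AML3 it was at 107, 106 and 110 CPM with SNDX-50469, against 97.1, 104 and 101 CPM in control. The groups lay far apart in MV4-11, while in OCI-AML3 the treated libraries lay slightly above the controls and the gene was not called. The log2 difference was -3.50 ± 0.17 (SE, adjusted p = 8.79e-11), made up of -3.40 in MV4-11 and 0.10 in OCI-AML3. In MOLM13, MEF2C was at 41 and 41.1 CPM with SNDX-50469, against 157 and 160 CPM in control.

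MEIS1 fell in both lines. It was at 19.8 and 25.1 CPM in treated MV4-11, against 86 and 76 CPM in control, and at 26.7, 26.9 and 27.4 CPM in treated OCI-AML3, against 38.8, 36.8 and 38.2 CPM in control. Treated and control libraries were separate in each line, but the log2 response was -1.85 in MV4-11 and -0.49 in OCI-AML3, a difference of -1.36 ± 0.17 (adjusted p = 2.44e-05). MOLM13 had 6.36 and 6.08 CPM with SNDX-50469, against 35.4 and 39.9 CPM in control. PBX3, which joins MEIS1 and HOX proteins on DNA, was at 31.4 and 37 CPM in treated and 114 and 106 CPM in control MV4-11, and at 18, 17.1 and 18 CPM in treated and 30.7, 31.4 and 31.2 CPM in control OCI-AML3. It fell in both lines, with a log2 difference of -0.87 ± 0.16 (adjusted p = 0.00122).

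HOXA9 (chr7:27162438-27165537), the HOX gene most tied to these leukemias, was at 24.9 and 28.6 CPM in treated MV4-11, against 55.5 and 48.7 CPM in control. In OCI-AML3 the treated libraries had 68.4, 67.6 and 68.5 CPM and the controls 68.7, 67.4 and 64.3 CPM, so the groups overlapped. The log2 difference was -0.99 ± 0.17 (adjusted p = 5.14e-04). The Polycomb gene BMI1, which supports self-renewal, behaved likewise, with 9.20 and 12.3 CPM in treated and 24.6 and 24.9 CPM in control MV4-11. Its OCI-AML3 groups overlapped at 15.6, 13.1 and 14.7 CPM treated and 13.8, 14.2 and 12.4 CPM control, and the log2 difference was -1.3 ± 0.20 (adjusted p = 0.000108).

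CDK6, a cell cycle kinase, was at 140 and 222 CPM in treated MV4-11, against 547 and 625 CPM in control. It was at 458, 488 and 500 CPM in treated OCI-AML3, against 601, 672 and 675 CPM in control, and so fell in both lines with a log2 difference of -1.26 ± 0.20 (adjusted p = 0.000261). MYB, a progenitor transcription factor, was at 287 and 325 CPM in treated and 621 and 564 CPM in control MV4-11. In OCI-AML3 it was at 241, 242 and 245 CPM treated and 293, 305 and 299 CPM control, groups that did not overlap but had a response of -0.30, under that size. The MYB difference of -0.65 ± 0.16 (adjusted p = 0.0116) lost its call without MV4-11 control 1 (-0.58, adjusted p = 0.07) or MV4-11 SNDX-50469 1 (-0.59, adjusted p = 0.1). JMJD1C, a histone demethylase family member, had a difference of -0.79 ± 0.18 (adjusted p = 0.00481), which without MV4-11 SNDX-50469 1 was -0.58 (adjusted p = 0.062).

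Other targets fell in both lines without a called difference. FLT3, the receptor kinase often mutated in AML, was at 263 and 278 CPM in treated MV4-11, against 488 and 528 CPM in control. It was at 14.2, 14.3 and 14.5 CPM in treated OCI-AML3, against 28.7, 30.1 and 30.3 CPM in control. The log2 responses were -0.91 in MV4-11 and -1.05 in OCI-AML3, and the 95% interval of the difference ran from -0.19 to 0.48 (adjusted p = 0.61). LAMP5 had responses of -0.54 and -0.84 with an interval of -0.03 to 0.64, and CPEB2, an mRNA-binding protein gene, had -1.48 and -1.22 with an interval of -0.72 to 0.20. RUNX2, a RUNX family transcription factor, fell by 1.23 in MV4-11 and by 0.86 in OCI-AML3, and its difference had an interval of -0.75 to 0.01. Missing the threshold does not show that these genes responded alike in both lines.

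Among 17 further MLL fusion targets tested in both lines, 11 fell in MV4-11 and 7 in OCI-AML3. Of all genes, 9.81% and 3.89% fell in these lines. The difference was negative for 5 and positive for 1 (background 6.69% and 7.27%), with a median of -0.37, and the negative count was 2 without MV4-11 SNDX-50469 1. SATB1, a chromatin organizer, was at 100 and 136 CPM in treated and 377 and 354 CPM in control MV4-11, and at 331, 333 and 338 CPM in treated and 515, 544 and 540 CPM in control OCI-AML3, with a log2 difference of -0.95 ± 0.17 (adjusted p = 0.00103). BCL11A, a zinc finger repressor, fell in MV4-11 and rose in OCI-AML3. It was at 35 and 35.2 CPM in treated and 83.6 and 73.9 CPM in control MV4-11, but at 0.968, 1.3 and 0.890 CPM in treated and 0.245, 0.341 and 0.136 CPM in control OCI-AML3. Its difference of -3.32 ± 0.32 (adjusted p = 1.45e-06) therefore sets a change of a well-expressed gene beside a rise at the edge of detection. The positive difference was CCNA1, a germline and myeloid cyclin, at 55.2 and 48.1 CPM in treated and 23.4 and 21.8 CPM in control MV4-11, and at 0.822, 0.778 and 0.890 CPM in treated and 1.26, 1.14 and 1.28 CPM in control OCI-AML3 (1.76 ± 0.22, adjusted p = 2.05e-06). The remaining negative differences were those of MBNL1 (-0.96), ELF1 (-0.66) and IGF2BP2 (-0.50). All 3 lost their call without MV4-11 SNDX-50469 1, and IGF2BP2 also without MV4-11 control 1 (-0.38, adjusted p = 0.32).

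**Figure D2:**
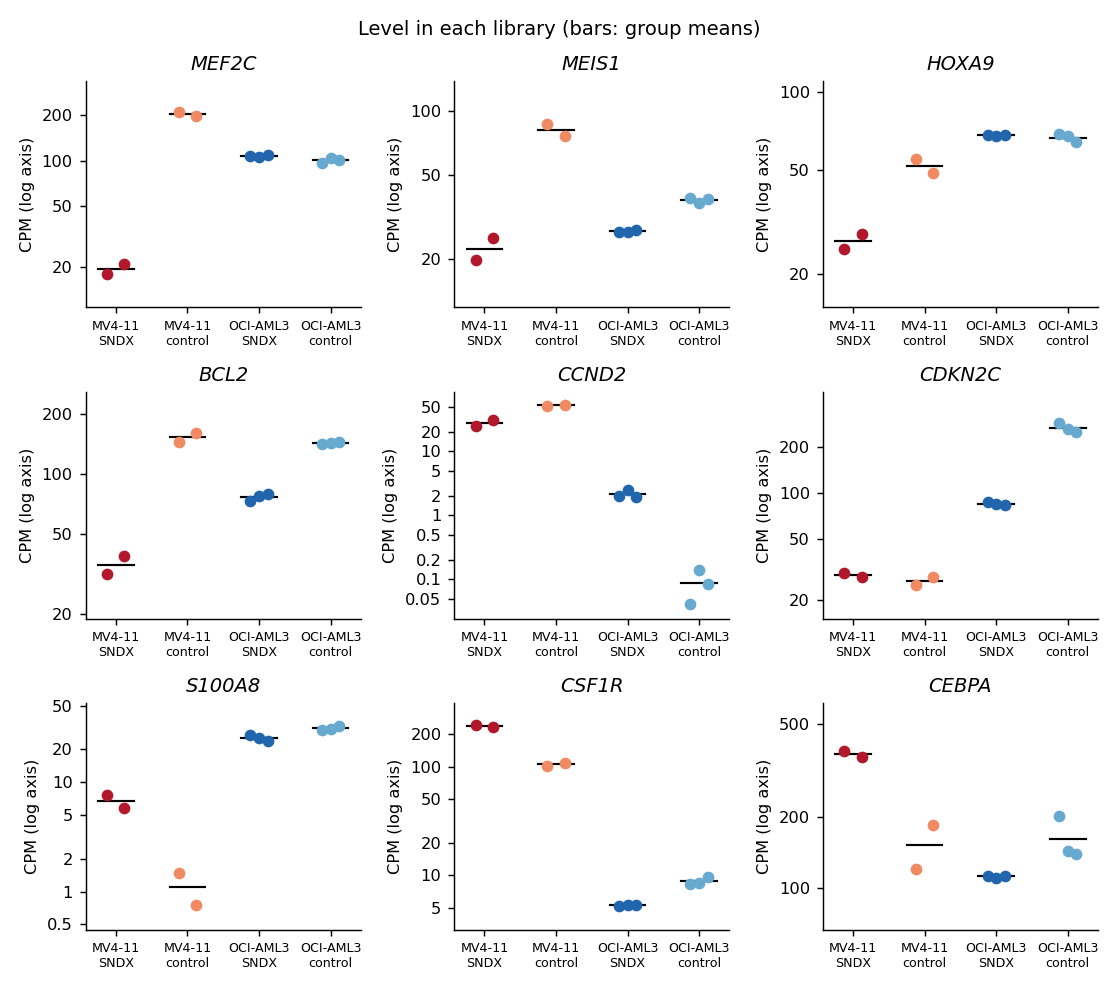
CPM on a log axis for 9 genes, with each point a library and each bar the mean of its group, the treated group left of its control in MV4-11 and then in OCI-AML3. MEF2C falls in MV4-11 and was not called in OCI-AML3, BCL2 and MEIS1 fall in both lines, CCND2 falls in MV4-11 and rises in OCI-AML3, and CSF1R and CEBPA rise in MV4-11 and fall in OCI-AML3.

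The HOX clusters differed between the lines before any treatment, which limits what can be compared. HOXA3, HOXA5, HOXA6 and HOXA7 had 0 counts in all 4 MV4-11 libraries, while in OCI-AML3 HOXA5 was at 11.2, 10.9 and 11.2 CPM with SNDX-50469, against 6.34, 5.63 and 5.47 CPM in control. HOXA5 rose in OCI-AML3 by 0.93 on the log2 scale, and HOXA6 (1.06), HOXA7 (0.70), HOXA3 (0.55) and HOXB9 (1.24) also rose there. A rise of these HOX genes with a Menin inhibitor stood beside the fall of MEIS1, PBX3 and FLT3 in the same libraries. HOXA9, described above, was tested in both lines and had a negative difference. HOXA10 was at 19.7 and 19.4 CPM in treated and 22.1 and 32.7 CPM in control MV4-11, and its OCI-AML3 groups overlapped between 76.3 and 99.9 CPM. None of the 4 HOXB genes tested in both lines had a called difference. MEIS2, a relative of MEIS1, fell in MV4-11 by 0.51 and rose in OCI-AML3 by 0.38 on the log2 scale, a difference of -0.89 ± 0.20 (adjusted p = 0.00375).

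MEN1 mRNA itself changed little. MEN1 was at 82.9 and 80.9 CPM in treated and 74.1 and 71.1 CPM in control MV4-11, and at 116, 112 and 114 CPM in treated and 118, 112 and 112 CPM in control OCI-AML3, with a difference of 0.17 (95% interval -0.15 to 0.49). Of 21 genes of Menin, MLL and their partners, 1 had a positive difference (MLLT3, 1.19) and 2 a negative difference (AFF1, -0.61, and PSIP1, -0.54). The background was 7.27% and 6.69%. PSIP1 encodes LEDGF, which holds the Menin complex on chromatin, and AFF1 and MLLT3 encode elongation factors that are common MLL1 fusion partners. All 3 calls depended on single libraries and were lost without MV4-11 SNDX-50469 1.

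BCL2, the anti-apoptotic gene, fell in both lines and further in MV4-11, at 31.7 and 38.9 CPM treated against 145 and 160 CPM control. In OCI-AML3 it was at 73, 77.5 and 79.1 CPM treated against 140, 143 and 144 CPM control. The groups were separate in each line, and the log2 difference was -1.22 ± 0.17 (adjusted p = 6.39e-05). MOLM13, in contrast, had 150 and 146 CPM with SNDX-50469 and 148 and 158 CPM in control. MCL1, the related survival gene, had a difference of 0.08 (95% interval -0.25 to 0.41). Of 17 BCL2 family genes and apoptosis inhibitors tested, 2 had a positive and 2 a negative difference, beside a background of 7.27% and 6.69%, and the median was 0.06. Apart from BCL2, the negative difference was PMAIP1 (NOXA), at 8.88 and 12.2 CPM in treated and 19.7 and 21.9 CPM in control MV4-11, with overlapping OCI-AML3 groups between 19.7 and 23.3 CPM (-0.99 ± 0.20, adjusted p = 0.00215). The positive differences were BCL2L11 (BIM, 0.67) and BAD (1.09), and both lost their call without MV4-11 control 1. BMF, another BH3-only death gene, rose in both lines, by 1.15 in MV4-11 and 0.81 in OCI-AML3 on the log2 scale (95% interval of the difference 0.02 to 0.67, adjusted p = 0.153).

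CCND2, which encodes cyclin D2 (chr12:4273762-4305353), had the largest difference of any gene named here. It was at 24.7 and 30.5 CPM in treated MV4-11, against 51.7 and 52.4 CPM in control. In OCI-AML3 it was at 2.03, 2.5 and 1.91 CPM with SNDX-50469, against 0.0408, 0.140 and 0.0852 CPM in control, which are 2, 7 and 5 counts. Cyclin D2 mRNA thus fell in MV4-11 and rose in OCI-AML3 to a level still below that of treated MV4-11, and the log2 difference was -5.47 ± 0.32 (adjusted p = 5.59e-10). The size of the OCI-AML3 part rests on those few control counts. MOLM13 had 110 and 116 CPM with SNDX-50469 and 126 and 135 CPM in control.

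The CDK inhibitors moved in different ways. CDKN2C, which encodes p18, fell in OCI-AML3, at 87.6, 85.3 and 83.7 CPM treated against 287, 264 and 251 CPM control. In MV4-11 it was at 30 and 28.3 CPM treated and 25.2 and 28.3 CPM control, and the log2 difference was 1.77 ± 0.17 (adjusted p = 5.36e-07). MOLM13 resembled OCI-AML3 in direction, with 46.9 and 47.2 CPM treated and 89.5 and 93.8 CPM control. CDKN1C, which encodes p57, rose in both lines, at 25.1 and 20.1 CPM treated against 3.39 and 5.32 CPM control in MV4-11, and at 5.46, 4.63 and 4.70 CPM treated against 0.428, 0.501 and 0.324 CPM control in OCI-AML3. Its rise was the larger in OCI-AML3 (-1.22 ± 0.27, adjusted p = 0.0028), a call that was lost without MV4-11 control 2 (-0.83, adjusted p = 0.098). CDKN2B, which encodes p15, fell in MV4-11 by 0.64 and rose in OCI-AML3 by 0.64 on the log2 scale (-1.28 ± 0.23, adjusted p = 0.000554). In the list of 14 D cyclins, CDK4/6 and CDK inhibitors, 4 had a negative and 1 a positive difference (background 6.69% and 7.27%), with a median of -0.23.

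Monocyte and granulocyte genes rose in MV4-11, most of them with a positive difference from OCI-AML3. Of 26 such genes tested in both lines, 20 rose and 1 fell in MV4-11, against 7 that rose and 4 that fell in OCI-AML3. In MOLM13, 13 of 22 rose and none fell. Of all genes, 11.8% rose in MV4-11, 7.55% in OCI-AML3 and 8.56% in MOLM13, and 9.81%, 3.89% and 5.26% fell. The difference was positive for 18 of the 26, where the background was 7.27%, and negative for none, and the median was 0.84. Leaving out each library in turn gave 14 to 18, and 17 without MV4-11 control 1.

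S100A8 and S100A9, which together form the calprotectin of neutrophils and monocytes, rose in MV4-11, and S100A9 fell in OCI-AML3. S100A8 (chr1:153390032-153422583) was at 7.67 and 5.80 CPM in treated MV4-11, against 1.47 and 0.746 CPM in control. In OCI-AML3 it was at 26.8, 25.5 and 23.7 CPM treated and 29.8, 30.8 and 32.8 CPM control, a response of -0.30 that was not called. The log2 difference of 2.96 ± 0.32 (adjusted p = 4.53e-06) was the largest positive value among the genes named. S100A9 rose in MV4-11, at 11.1 and 9.74 CPM treated against 3.03 and 2.63 CPM control, and fell in OCI-AML3, at 59.7, 59.1 and 58.4 CPM treated against 77.3, 74.3 and 74.9 CPM control (2.24 ± 0.23, adjusted p = 2.61e-06). After treatment both genes were still lower in MV4-11 than in OCI-AML3.

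CSF1R, the receptor for macrophage colony-stimulating factor (chr5:150053295-150113365), likewise rose in MV4-11 and fell in OCI-AML3. It was at 240 and 230 CPM in treated MV4-11, against 101 and 109 CPM in control, and at 5.26, 5.30 and 5.30 CPM in treated OCI-AML3, against 8.38, 8.49 and 9.60 CPM in control. The log2 difference was 1.90 ± 0.17 (adjusted p = 3.26e-08), and in MOLM13 it was at 18.9 and 20.3 CPM treated and 9.85 and 8.48 CPM control. CCR1, a chemokine receptor, showed the same opposition at 40.8 and 45.5 CPM treated and 28.2 and 26.5 CPM control in MV4-11, and 80.8, 82 and 83.4 CPM treated and 104, 107 and 106 CPM control in OCI-AML3 (1.02 ± 0.16, adjusted p = 0.00031).

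Further monocyte genes rose in MV4-11, some of them with little movement in OCI-AML3. KLF4, a monocyte transcription factor, was at 23.1 and 26 CPM treated and 7.74 and 10.2 CPM control in MV4-11, and between 13.9 and 16.8 CPM in all OCI-AML3 libraries (1.59 ± 0.20, adjusted p = 1.36e-05). CYBB, the membrane enzyme of the oxidative burst in phagocytes, was at 154 and 182 CPM treated and 78 and 83.7 CPM control in MV4-11, against overlapping OCI-AML3 groups between 323 and 355 CPM (1.02 ± 0.16, adjusted p = 0.000221). CSF3R, the receptor for granulocyte colony-stimulating factor, was at 268 and 254 CPM treated and 149 and 142 CPM control in MV4-11 (0.81 ± 0.15, adjusted p = 0.00136), with OCI-AML3 between 77.7 and 82.2 CPM throughout. MEFV, the pyrin gene, had a difference of 1.01 ± 0.18, and CCR2, the receptor that draws monocytes to inflamed tissue, 0.87 ± 0.16. In OCI-AML3 the treated libraries lay above the controls for MEFV and below them for CCR2. TLR8, an endosomal sensor of RNA, and the lipopolysaccharide co-receptor CD14 rose in both lines. TLR8 was at 2.77 and 3.22 CPM treated and 0.354 and 0.260 CPM control in MV4-11, and at 2.41, 2.04 and 2.33 CPM treated and 1.35, 1.66 and 1.81 CPM control in OCI-AML3 (2.82 ± 0.42, adjusted p = 9.9e-05).

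Of 4 tested differentiation markers that the study follows, 3 rose in MV4-11 and 3 in OCI-AML3, and 2 had a positive difference (background 7.27%). Of all genes, 11.8% rose in MV4-11 and 7.55% in OCI-AML3. ITGAM, which encodes CD11b, was at 8.73 and 8.75 CPM treated and 2.22 and 2.5 CPM control in MV4-11. In OCI-AML3 it was at 3.23, 3.60 and 3.13 CPM treated and 1.37, 1.44 and 1.36 CPM control. Treated and control libraries were separate in each line, and the difference of 0.62 (95% interval 0.09 to 1.15) had an adjusted p of 0.107. CD86, a co-stimulatory molecule of antigen-presenting cells, rose by more in MV4-11, at 18.3 and 19.8 CPM treated and 1.52 and 2.30 CPM control, than in OCI-AML3, at 2.85, 3.00 and 3.03 CPM treated and 1.35, 1.34 and 1.28 CPM control (2.12 ± 0.26, adjusted p = 3.87e-06). LYZ had overlapping groups in MV4-11, and its difference of 0.12 had a 95% interval of -0.27 to 0.50. ANXA1, an anti-inflammatory annexin of phagocytes, rose in both lines, with responses of 1.6 in MV4-11 and 0.78 in OCI-AML3 (0.82 ± 0.16, adjusted p = 0.00162). FCGR1A, the CD64 gene, fell in MV4-11 by 0.60 against -0.16 in OCI-AML3, and the difference had an interval of -0.81 to -0.08 (adjusted p = 0.095).

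Myeloid transcription factor genes fell in OCI-AML3, and some rose in MV4-11. Of 14 tested, 5 rose and 1 fell in MV4-11, while 1 rose and 8 fell in OCI-AML3. Of all genes, 11.8% rose and 9.81% fell in MV4-11, and 7.55% rose and 3.89% fell in OCI-AML3. The difference was positive for 7 of them and negative for none, with a median of 0.52, where the background was 7.27%. Leaving out MV4-11 SNDX-50469 1 gave 4. CEBPA, the master regulator of granulocyte and monocyte fate (chr19:33299934-33302534), was at 382 and 361 CPM in treated MV4-11, against 120 and 186 CPM in control, and at 113, 111 and 113 CPM in treated OCI-AML3, against 202, 144 and 139 CPM in control. No treated library overlapped a control library in either line, and the log2 difference was 1.81 ± 0.21 (adjusted p = 1.29e-06). OCI-AML3 control 1 was the highest of its group, and without it the difference was 1.61. CEBPB, which drives emergency granulocyte formation, had a difference of 1.03 ± 0.20 (adjusted p = 0.00069), and of 0.82 without the same library. SPI1 (PU.1) had 0.74 ± 0.17, of 0.33 in MV4-11 and -0.42 in OCI-AML3, and lost its call without MV4-11 SNDX-50469 1. IRF8, a monocyte and dendritic cell factor, was at 456 and 504 CPM treated and 542 and 595 CPM control in MV4-11, and at 613, 619 and 625 CPM treated and 1037, 1046 and 1027 CPM control in OCI-AML3. It fell in OCI-AML3 alone, but the difference (0.50 ± 0.16, adjusted p = 0.0463) lost its call without any of 6 libraries. GATA2, a factor of stem and progenitor cells, rose in OCI-AML3, at 10.1, 10.8 and 11.1 CPM treated against 4.16, 3.77 and 3.97 CPM control, while in MV4-11 it was at 1.10 and 1.58 CPM treated and 2.38 and 1.95 CPM control (-2.10 ± 0.34, adjusted p = 0.000354).

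**Figure D3:**
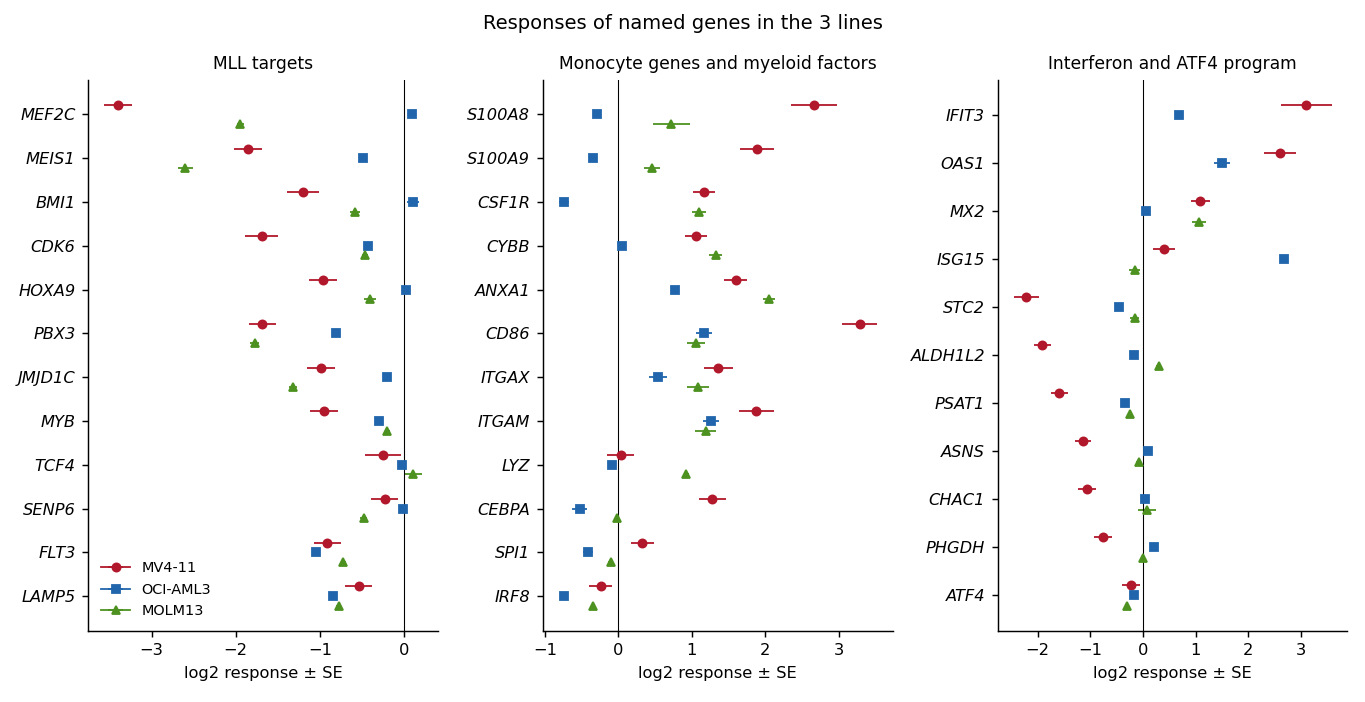
Log2 responses to SNDX-50469 with their standard errors in MV4-11, OCI-AML3 and MOLM13 for MLL targets, monocyte and myeloid genes, and interferon and ATF4 genes. MEF2C stands at -3.40 in MV4-11 and 0.10 in OCI-AML3, FLT3 lies close together in the 3 lines, and ISG15 rises in OCI-AML3 alone.

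Several of the most positive differences fell outside the lists, among genes with at least 1 CPM on average in each line. That average took treated and control libraries together. PRAM1, an adaptor protein of myeloid cells, was at 42.4 and 39.5 CPM in treated and 9.30 and 7.56 CPM in control MV4-11, with overlapping OCI-AML3 groups between 2.48 and 3.02 CPM (2.38 ± 0.21, adjusted p = 1.43e-08). ALOX5, the enzyme that starts leukotriene synthesis, was at 2.81 and 2.54 CPM in treated and 0.556 and 0.389 CPM in control MV4-11 (2.51 ± 0.41). The anion transporter gene SLC26A11 (2.88) and the uncharacterized KIAA0513 (2.79) rose in both lines and by more in MV4-11. PSD3, an exchange factor for ARF proteins, SLC8A1, a sodium and calcium exchanger, and DAB2, an endocytic adaptor, rose in MV4-11. So did PLPP3, a lipid phosphatase, and CAVIN3, a caveola protein, and all these differences lay between 2.20 and 2.54. In MV4-11 control CAVIN3 had 5 and 16 counts, DAB2 14 and 20, and KIAA0513 5 and 20. The sizes of these rises rest on few counts, and the CAVIN3 difference ran from 2.00 to 3.03 as a library was left out. PDXP, at 4.30 and 4.53 CPM in treated and 0.961 and 2.66 CPM in control MV4-11, rested on its OCI-AML3 control 1 value of 3.83 CPM, since the other 5 OCI-AML3 libraries lay between 0.783 and 1.01 CPM. Without OCI-AML3 control 1 its difference was 1.3 instead of 2.27, and without MV4-11 control 1 it was 1.77 (adjusted p = 0.062).

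Among genes that averaged at least 1 CPM in each line, the most negative differences were mostly rises in OCI-AML3. Of the 15 most negative of these, 14 rose there, MEF2C being the exception, and 8 of the 15 were not called in MV4-11. The average ran over treated and control libraries, so CCND2, at 2, 7 and 5 counts in OCI-AML3 control, passed at 1.12 CPM through its treated libraries. The 15 were ranked by the same difference, so the share of rises depends in part on that choice and is a description only. EEF1A2, a tissue-restricted translation elongation factor, was at 150 and 124 CPM treated and 123 and 131 CPM control in MV4-11, but at 14.9, 14.5 and 14.5 CPM treated against 1.63, 1.72 and 1.69 CPM control in OCI-AML3 (-3.01 ± 0.17, adjusted p = 2.01e-11). NOTUM, a secreted enzyme that inactivates Wnt proteins, was at 1.99 and 1.65 CPM treated and 2.27 and 2.89 CPM control in MV4-11, and at 17, 17.1 and 16.8 CPM treated against 1.73, 1.66 and 2.10 CPM control in OCI-AML3 (-3.72 ± 0.31, adjusted p = 1.09e-07). TBX1, a T-box factor of heart and pharynx development, was at 14.2, 13 and 12.7 CPM treated against 1.24, 0.881 and 0.870 CPM control in OCI-AML3, with MV4-11 between 6.22 and 8.27 CPM in all libraries (-3.50 ± 0.24). LINC02593, a long noncoding RNA, EPS8L2, an actin regulator, GRIN1, an NMDA receptor subunit, HIC1, a transcriptional repressor, and PDGFA, a platelet-derived growth factor, also rose in OCI-AML3 alone. In OCI-AML3 control each of these 5 averaged below 5 CPM. None of the 7 of these genes tested in MOLM13 rose in that line, and NOTUM, HIC1 and PDGFA fell.

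Genes that moved in opposite ways in the 2 lines included a class IIa histone deacetylase. HDAC9, which binds and represses MEF2 factors, was at 4.08 and 4.53 CPM in treated MV4-11, against 18.8 and 16.3 CPM in control, and at 19.5, 20.4 and 20.1 CPM in treated OCI-AML3, against 10.5, 10.5 and 10.7 CPM in control. All libraries of each group were tightly placed, and the log2 difference was -2.94 ± 0.21 (adjusted p = 1.43e-08). ESPN, an actin-bundling protein, was at 2.27 and 1.92 CPM treated and 4.5 and 5.16 CPM control in MV4-11, and at 5.55, 4.58 and 5.0 CPM treated and 0.714, 0.701 and 0.494 CPM control in OCI-AML3 (-4.21 ± 0.30, adjusted p = 2.48e-10). CDC42EP1, an effector of the GTPase CDC42, was at 2.77 and 2.16 CPM treated and 10.4 and 8.37 CPM control in MV4-11, and at 7.11, 7.87 and 8.54 CPM treated and 5.59, 5.29 and 5.34 CPM control in OCI-AML3 (-2.46 ± 0.25). SYNGR3, a synaptic vesicle protein, CPXM1, a carboxypeptidase-like protein, and the antisense RNA BAZ1A-AS1 also fell in MV4-11 and rose in OCI-AML3, with differences of -2.61, -2.90 and -1.99. Reads of BAZ1A-AS1 may include reads of overlapping genes, since the strand setting of the counting is not known. BBX, an HMG-box protein, fell in both, at 18.5 and 26.9 CPM treated and 131 and 132 CPM control in MV4-11, and at 46.8, 51.7 and 51 CPM treated and 57.3, 65.6 and 66.5 CPM control in OCI-AML3 (-2.19 ± 0.19, adjusted p = 1.03e-07). NPTXR, a neuronal pentraxin receptor, rose in both and by more in OCI-AML3, at 12.2, 12.3 and 11.6 CPM treated against 1.61, 1.94 and 1.69 CPM control, while MV4-11 had 8.38 and 7.89 CPM treated against 4.09 and 4.67 CPM control (-1.90 ± 0.23). SYNPO (2.00) and TMEM86A (1.89) rose in both lines and by more in MV4-11.

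MYC and the ribosome biogenesis genes that it is known to drive fell in MV4-11. Of 37 genes, 30 fell in MV4-11, 5 in OCI-AML3 and 7 in MOLM13, and none rose. Of all genes tested, 9.81% fell in MV4-11, 3.89% in OCI-AML3 and 5.26% in MOLM13. The difference was negative for 12 of the 37, where the background was 6.69%, with a median of -0.43. Without MV4-11 control 1, the library of high mitochondrial share, 4 of the 37 were called and the median was -0.37, and 6 were called when either treated MV4-11 library was left out. MYC was at 362 and 377 CPM in treated MV4-11, against 747 and 652 CPM in control, and at 439, 443 and 448 CPM in treated OCI-AML3, against 561, 567 and 562 CPM in control. It fell in both lines, and the difference of -0.58 ± 0.16 (adjusted p = 0.0246) became -0.48 (adjusted p = 0.18) without MV4-11 control 1. NME1, a nucleoside diphosphate kinase, was at 16.6 and 13 CPM treated and 47 and 30.7 CPM control in MV4-11, and at 50.8, 51.4 and 49.6 CPM treated and 64.1, 59.6 and 59.3 CPM control in OCI-AML3 (-1.12 ± 0.21, adjusted p = 0.00124), a call lost without MV4-11 SNDX-50469 2. DKC1, which encodes dyskerin of the telomerase and snoRNA particles, had a difference of -0.73 ± 0.15 that was called without each library. The E-box CACGTG is the sequence that MYC and MAX bind. It was found in the windows of 19 of 32 genes of this list (59.4%), against 12.8% of all tested genes with a window. The E-box was also in the windows of 6 of the 12 MLL targets (50%). Among genes with a negative difference and a window, 11.9% had it. A match of letters does not show binding, and the part of MYC in these falls was not tested. No difference was called for the 60 cytosolic ribosomal protein genes, whose median was 0.20.

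The ATF4 program of amino acid synthesis and stress also fell in MV4-11. Of 21 genes, 15 fell and 1 rose in MV4-11, against 3 that fell and 1 that rose in OCI-AML3, and in MOLM13 none fell. Of all genes, 9.81% fell in MV4-11, 3.89% in OCI-AML3 and 5.26% in MOLM13, and 11.8% and 7.55% rose in MV4-11 and OCI-AML3. The difference was negative for 12 and positive for 1, CEBPB, which is also among the myeloid factors above, where the background was 6.69% and 7.27%, and the median was -0.62. The negative count was 12 without MV4-11 control 1 and 7 without MV4-11 SNDX-50469 2. ALDH1L2, a mitochondrial folate enzyme, was at 17.9 and 15.9 CPM in treated and 60.9 and 66.1 CPM in control MV4-11, and at 41.8, 46.4 and 43.5 CPM in treated and 46.9, 50.5 and 51.3 CPM in control OCI-AML3 (-1.74 ± 0.17, adjusted p = 7.01e-07). PSAT1, of serine synthesis, was at 104 and 93.7 CPM treated and 270 and 323 CPM control in MV4-11, and at 119, 123 and 124 CPM treated and 150, 160 and 151 CPM control in OCI-AML3 (-1.26 ± 0.16, adjusted p = 3.09e-05). ASNS, asparagine synthetase, was at 43.1 and 35.4 CPM treated and 84.9 and 87.5 CPM control in MV4-11, and at 69, 68.3 and 65.7 CPM treated and 61.1, 64 and 63.6 CPM control in OCI-AML3 (-1.24 ± 0.16, adjusted p = 3.28e-05). The differences of the secreted glycoprotein gene STC2 (-1.76), the glutathione-degrading CHAC1 (-1.11) and the serine synthesis gene PHGDH (-0.96) were of like size. ATF4 mRNA itself was at 581 and 456 CPM treated and 637 and 578 CPM control in MV4-11, and its difference of -0.05 had a 95% interval of -0.41 to 0.31. MV4-11 alone grew in IMDM, and the part of the medium in the level of these genes was not tested.

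Of 21 genes of the unfolded protein response, 9 fell in MV4-11 and 2 in OCI-AML3, where 9.81% and 3.89% of all genes fell. The difference was negative for 5 and positive for 1 (background 6.69% and 7.27%). Without MV4-11 control 1 these counts were 2 and 0. XBP1, its central transcription factor, was at 178 and 156 CPM treated and 378 and 375 CPM control in MV4-11, and at 188, 182 and 181 CPM treated and 242, 219 and 212 CPM control in OCI-AML3 (-0.88 ± 0.16, adjusted p = 0.000852). The chaperone gene HYOU1 had a difference of -0.68 ± 0.15, which lost its call without MV4-11 control 1. HERPUD1, of protein degradation at the endoplasmic reticulum, had the positive difference (0.60 ± 0.15), also lost without that library, and DDIT3 (CHOP) a negative difference of -0.60 ± 0.19 that lost its call without any of 5 libraries.

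Of 24 interferon-stimulated genes tested, 14 rose and 1 fell in MV4-11, and 11 rose and none fell in OCI-AML3, where 11.8% and 7.55% of all genes rose. The difference was positive for 6 and negative for 2 (background 7.27% and 6.69%), with a median of 0.42. The positive count was 2 without MV4-11 SNDX-50469 1, and 3 without MV4-11 SNDX-50469 2 or control 2. ISG15 and IFIT3 stood at the ends and their promoters are shown for that reason, with the core of the interferon-stimulated response element in capitals. The core searched was a pair of TTTC 2 bases apart, on either strand, so that GAAA pairs count too, and matches may overlap. The ISG15 window (chr1:1013247-1013546, plus strand) holds 2 overlapping matches, and the IFIT3 window (chr10:89327747-89328046, plus strand, 1 of 2 annotated starts) holds 2 that do not overlap.
ISG15: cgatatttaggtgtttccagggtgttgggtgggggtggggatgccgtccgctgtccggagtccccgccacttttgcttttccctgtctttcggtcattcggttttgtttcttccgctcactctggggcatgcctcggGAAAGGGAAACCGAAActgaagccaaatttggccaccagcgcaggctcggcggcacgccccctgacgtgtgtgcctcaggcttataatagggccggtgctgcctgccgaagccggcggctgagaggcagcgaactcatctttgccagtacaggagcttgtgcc
IFIT3: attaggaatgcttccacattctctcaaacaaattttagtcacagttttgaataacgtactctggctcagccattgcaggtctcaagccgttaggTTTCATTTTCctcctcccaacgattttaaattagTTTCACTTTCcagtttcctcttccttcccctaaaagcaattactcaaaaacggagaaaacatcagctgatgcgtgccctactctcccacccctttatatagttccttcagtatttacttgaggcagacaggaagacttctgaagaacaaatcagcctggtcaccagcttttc
The motif was in the windows of 9 of 16 interferon genes (56.2%) and of 3.9% of all tested genes with a window. Both windows hold it, while the differences of these genes had opposite signs, and a match of letters does not show binding.

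ISG15, an ubiquitin-like modifier (chr1:1013497-1014540), rose in OCI-AML3, at 32, 31 and 33.1 CPM treated against 5.18, 4.81 and 4.94 CPM control. In MV4-11 it was at 15.4 and 11.1 CPM treated and 10.1 and 9.93 CPM control, and the log2 difference was -2.28 ± 0.21 (adjusted p = 3.15e-07). IFIT3, an antiviral tetratricopeptide protein (chr10:89327997-89340968), rose in both lines, at 2.52 and 2.09 CPM treated and 0.455 and 0.130 CPM control in MV4-11, and at 11, 10.7 and 10.3 CPM treated and 6.63, 6.25 and 6.84 CPM control in OCI-AML3 (2.41 ± 0.48, adjusted p = 0.00251). Its MV4-11 controls held 9 and 4 counts, so the size of that rise rests on few counts. MX2, which restricts retroviruses, rose in MV4-11, at 43.6 and 39.8 CPM treated against 23.1 and 16.1 CPM control, with OCI-AML3 between 101 and 107 CPM throughout (1.04 ± 0.19, adjusted p = 0.001). OAS1 (1.11), IFIT2 (1.62) and RSAD2 (1.2) also had positive differences and USP18, which removes ISG15 from proteins, a negative difference (-1.38), all 4 of which lost their call without MV4-11 SNDX-50469 1. CXCL10, an interferon-induced chemokine, fell in MV4-11, at 23.7 and 17.9 CPM treated against 41 and 39.8 CPM control, and rose in OCI-AML3, at 5.04, 4.32 and 5.04 CPM treated against 2.22, 2.34 and 1.89 CPM control (-2.12 ± 0.20, adjusted p = 4.81e-08).

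Antigen presentation genes rose in MV4-11. CIITA, the master switch of MHC class II, was at 13.3 and 19.4 CPM treated and 3.13 and 5.03 CPM control in MV4-11, and at 1.96, 2.33 and 1.78 CPM treated and 1.16, 1.34 and 1.43 CPM control in OCI-AML3. It rose in both lines with a difference of 1.36 ± 0.28 (adjusted p = 0.00181), which lost its call without MV4-11 SNDX-50469 2. HLA-DRA, tested in MV4-11 only, rose there by 1.33 on the log2 scale. Of 12 MHC class I genes, 7 rose in MV4-11 and 2 in OCI-AML3, where 11.8% and 7.55% of all genes rose. The difference was positive for 3 (background 7.27%), namely NLRC5 (0.85), HLA-E (0.62) and HLA-B (0.54). None of the 12 was called without MV4-11 control 1, and 1 without MV4-11 SNDX-50469 1.

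**Figure D4:**
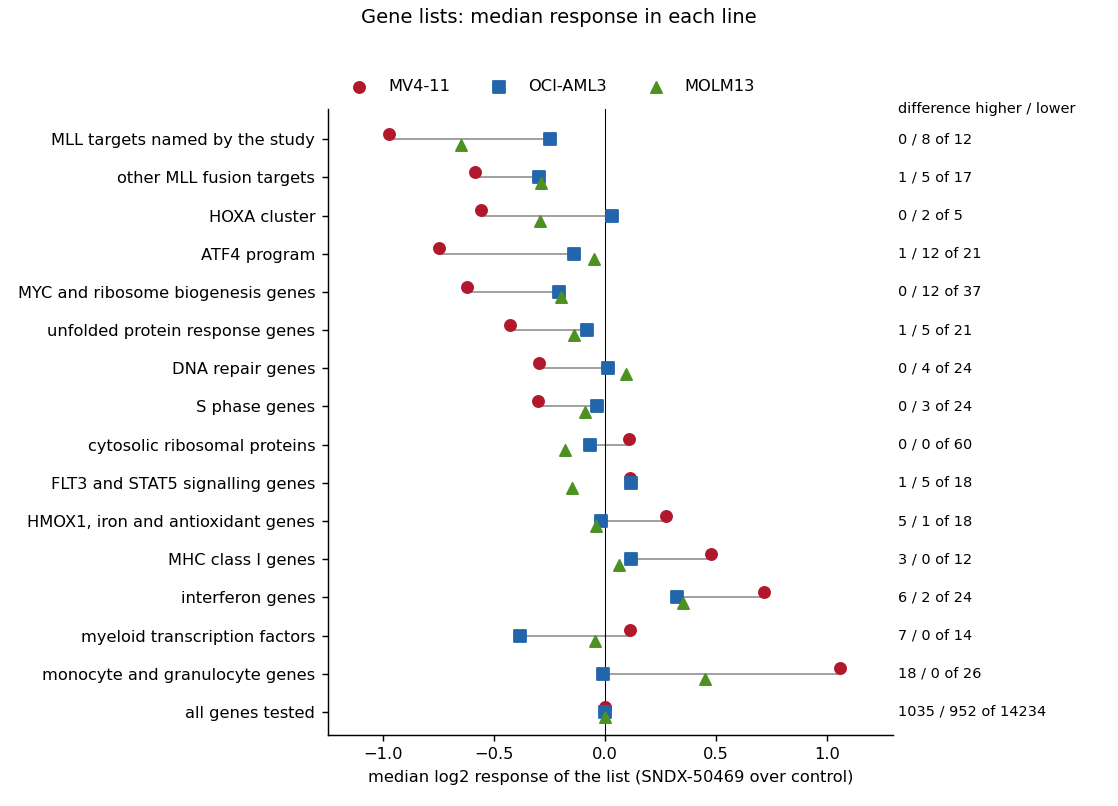
The median log2 response of each gene list in MV4-11, OCI-AML3 and MOLM13, with the numbers of genes whose difference between MV4-11 and OCI-AML3 was positive or negative. The monocyte and granulocyte genes (median 1.06 in MV4-11 and -0.01 in OCI-AML3) and the ATF4 program (median -0.75 and -0.14) lie furthest apart among the lists of more than 20 tested genes.

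Of 18 genes of heme, iron and antioxidant handling, 5 had a positive and 1 a negative difference (background 7.27% and 6.69%). Without MV4-11 control 1 these counts were 2 and 0, and without MV4-11 SNDX-50469 1 the positive count was 2. It was 3 without MV4-11 SNDX-50469 2, and also when either of 2 OCI-AML3 libraries was left out. HMOX1, heme oxygenase, was at 12.1 and 10.6 CPM treated and 1.82 and 1.66 CPM control in MV4-11, and at 3.80, 3.46 and 3.69 CPM treated and 2.88, 2.92 and 2.69 CPM control in OCI-AML3. It rose in both lines and by more in MV4-11 (2.35 ± 0.25, adjusted p = 1.45e-06). SQSTM1, the autophagy receptor, and GCLC, of glutathione synthesis, had differences of 0.59 and 0.58 that lost their calls without MV4-11 control 1. FTH1, ferritin heavy chain, was at 1238 and 1066 CPM treated and 933 and 702 CPM control in MV4-11, and its difference of 0.88 was 0.42 (adjusted p = 0.17) without OCI-AML3 control 1, in which it was at 183 CPM against 96.7 and 76.8 CPM in the other controls.

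Of 18 feedback and target genes of FLT3 and STAT5 signalling, 5 had a negative difference and 1 a positive difference (background 6.69% and 7.27%). The negative count was 3 without MV4-11 SNDX-50469 2. DUSP6, a phosphatase that limits ERK, was at 16.7 and 15.8 CPM treated and 35.2 and 30.6 CPM control in MV4-11, and at 22.4, 21.6 and 22.6 CPM treated and 19.3, 20.1 and 18.7 CPM control in OCI-AML3 (-1.21 ± 0.17, adjusted p = 8.18e-05). The ETS factor gene ETV5 (-1.12) and the ERK pathway inhibitor SPRED2 (-0.74) fell in MV4-11 and were not called in OCI-AML3. DUSP6 rose in MOLM13, by 0.65 on the log2 scale, so the fall was not shared by both MLL1-rearranged lines. PIM1, a STAT5-driven kinase, rose in OCI-AML3 by 0.97, against 0.42 in MV4-11, and SOCS3 rose in both lines and by more in MV4-11 (0.83). Both of these calls were lost without MV4-11 SNDX-50469 1.

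Among 23 genes of TNF and NF-kappaB signalling, 4 had a positive and 5 a negative difference (background 7.27% and 6.69%), and the negative count was 2 without MV4-11 SNDX-50469 2. ICAM1, an adhesion molecule, fell in MV4-11, at 36.9 and 32.5 CPM treated against 57.9 and 54.8 CPM control, and rose in OCI-AML3, at 8.13, 7.62 and 8.56 CPM treated against 4.20, 4.41 and 4.08 CPM control (-1.64 ± 0.17, adjusted p = 4.55e-07). The inflammatory cytokine gene IL1B rose in MV4-11, at 9.59 and 8.71 CPM treated against 2.93 and 3.76 CPM control, with OCI-AML3 between 45.4 and 50.4 CPM throughout (1.37 ± 0.23, adjusted p = 0.000599). CXCL8, the neutrophil chemoattractant, had a difference of 0.98 ± 0.18.

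Of 24 DNA repair genes, 7 fell in MV4-11 and none was called in OCI-AML3. Of all genes, 9.81% fell in MV4-11 and 11.4% were called in OCI-AML3. The difference was negative for 4 of the 24 (background 6.69%), with a median of -0.31, and for 1 without MV4-11 SNDX-50469 1 or without control 2. The most negative was MRE11, a double-strand break nuclease. MRE11 was at 46 and 55.5 CPM treated and 111 and 107 CPM control in MV4-11, and at 66.9, 68.5 and 69.4 CPM treated and 65.5, 65.4 and 66.8 CPM control in OCI-AML3 (-1.15 ± 0.16, adjusted p = 6.61e-05). The other 3 were BRCA2, PRKDC and CHEK1, each of which lost its call without MV4-11 SNDX-50469 1. Of 24 S phase genes 3, of 24 mitosis genes 1 and of 37 oxidative phosphorylation genes 1 had a negative difference (background 6.69%). None of them had a positive difference (background 7.27%). For the mitosis and oxidative phosphorylation genes these counts do not set the lists apart from all genes. The S phase count was 0 without MV4-11 control 1 and 1 without any other MV4-11 library. The 15 transcripts of the mitochondrial genome had a median difference of -0.52 with none called, and of 0.18 without MV4-11 control 1, the library whose mitochondrial share was 10.3%.

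Genes expressed in a single line have no difference of responses and are outside the counts above. Another 1252 genes passed the filter in MV4-11 only and 2377 in OCI-AML3 only. Of those with a symbol, 132 of 1023 rose and 49 fell in MV4-11, and 342 of 1734 rose and 146 fell in OCI-AML3.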

How the data were processed

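Total RNA was sequenced from 18 libraries of 8 groups, of which the 10 of MV4-11 and OCI-AML3 entered the comparison. The authors deposited whole-number read counts per Ensembl gene, not normalized, in 1 table of all libraries. STAR and hg38 are listed, without versions, in the submitters' processing notes, but the RNA sequencing methods of the study give TopHat2 and Cufflinks2, so the aligner stayed uncertain here. How reads were counted, whether strand was used and which annotation served were not given in the sources used here, so values of overlapping, antisense and near-identical genes are uncertain. The methods mention external spike-ins, for which the table had 0 entries. Symbols were found for 40931 of the 58037 gene IDs.

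Counts of each line were fitted apart with edgeR 4.0.16 (R 4.3.3) by glmQLFit and glmQLFTest, with TMM scaling, the filterByExpr filter (minimum count 10) and group means without covariates. Each line kept its own spread. The OCI-AML3 log2 response was subtracted from that of MV4-11, the squared standard errors were added, and degrees of freedom followed Satterthwaite. Benjamini-Hochberg adjustment ran over the 14234 genes that passed the filter in each line. A gene was called at an adjusted p below 0.05 and a log2 size of at least 0.32. The procedure was tested on simulated data. Alternatives were a shared fit of 10 or 18 libraries, limma 3.58.1, DESeq2 1.42.0, other scalings and filters, a 2-fold limit, a replicate block and each library left out in turn.

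The members and gene lists were chosen with earlier results of these data known. Named genes were list members and genes picked by a rule. The rule took called genes with a symbol, at least 1 CPM on average in each line and the same sign without each library. Of these it took the 15 largest differences each way and the 10 largest of opposite and of same-direction calls. The 1 CPM average ran over treated and control libraries together. Titles number the MV4-11 libraries 1 and 2, as used here, and descriptions 2 and 3. The study calls OCI-AML3 libraries biologic replicates, and for MV4-11 nothing says that they came from separate cultures. The MV4-11 p-values may therefore measure technical spread. OCI-AML3 replicates lay closer together, with a common biological coefficient of variation of 3.14% against 13% in MV4-11. Whether the OCI-AML3 spread is that of separate cultures was not tested. Replicates differed by more than sampling noise (chi-square per degree of freedom 1.46 to 43.9), and all were kept. A floor of 3 counts was 0.0511 to 0.152 CPM in the 10 libraries, and covers counting error only. The labels give no batch or date. Promoter windows are RefSeq sequences on GRCh38.p14.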

Additional observations from a re-analysis of the deposited data

Results flagged for a closer look

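The response to SNDX-50469 differed between MV4-11 and OCI-AML3 by a test of the difference itself, positive for 1035 genes and negative for 952. In the 2 lines, 40 genes were called as rising in MV4-11 and falling in OCI-AML3, and 26 the other way. The 10 of these with the largest differences, among genes averaging at least 1 CPM in each line, follow with their log2 differences (MV4-11 minus OCI-AML3). Those that fell in MV4-11 and rose in OCI-AML3 were CCND2 at -5.47, ESPN at -4.21, HDAC9 at -2.94, CPXM1 at -2.90, SYNGR3 at -2.61, CDC42EP1 at -2.46, CXCL10 at -2.12 and BAZ1A-AS1 at -1.99. S100A9 at 2.24 and CSF1R at 1.90 rose in MV4-11 and fell in OCI-AML3. The 10 were drawn from genes that kept the sign of their difference without each library, so that stability is a condition of the choice. Line, dose and medium cannot be told apart in any of the 10.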

How the results depend on the processing

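Counts of calls depended on how the spread was shared between the lines. Against 1035 positive and 952 negative differences, a shared edgeR fit of the 10 libraries gave 1770 and 1846, of all 18 libraries 1963 and 2165, limma after quantile scaling 1882 and 1883, and DESeq2 1849 and 1857. A 2-fold limit gave 374 and 280. In MV4-11 alone, the shared fit called 2725 rises and 2568 falls and DESeq2 2671 and 2591, against 1683 and 1397. Leaving out each library gave 494 to 1085 positive and 424 to 1021 negative differences, and in MV4-11 878 to 1464 rises and 763 to 1159 falls. Without MV4-11 control 1, 1049 genes were called, of which 975 were among the 1987, and without MV4-11 SNDX-50469 1, 918 and 885. Of 127 named genes with a call, 77 kept it under every alternative and 79 without each library. Signs turned for 4 uncalled genes as a library was left out: ATF4 ranged from -0.26 to 0.11 (0.016 without MV4-11 control 1), CPEB2 from -0.70 to 0.057, MCL1 from -0.040 to 0.19 (-0.023 without MV4-11 control 1) and NPM1 from -0.36 to 0.092. The cause of these shifts was not tested. With the replicate number as a block, 1418 positive and 1433 negative differences were called, but whether the numbers pair the samples is not known. Deviations of same-numbered MV4-11 libraries correlated at 0.123 and of different numbers at -0.123. With 2 libraries a group these mirror each other and cannot settle it. In OCI-AML3 same-numbered libraries correlated at 0.196, 0.0175 and 0.0648. There, library 1 correlated with the other numbers at -0.0811 to -0.138. OCI-AML3 libraries 2 and 3 correlated better with each other's number (0.0821 and 0.0953). The smaller depth and 2 libraries a group limit MV4-11.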
